A study of Rattus norvegicus with 12 samples.

Results

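The proteasome is the protease that degrades most cellular proteins once they carry a chain of ubiquitin. Its 20S core is a barrel of alpha and beta rings, in which the beta subunits hold the proteolytic sites, and its 19S regulatory particle recognises the chain, unfolds the substrate with a ring of ATPases and feeds it into the barrel. Ubiquitin reaches a substrate through an activating enzyme (E1), a conjugating enzyme (E2, the Ube2 genes) and a ligase (E3). Interferon gamma exchanges the catalytic beta subunits for the inducible ones encoded by Psmb8, Psmb9 and Psmb10 and raises the activator PA28, encoded by Psme1 and Psme2, and this immunoproteasome supplies peptides for MHC class I. In muscle and other tissues of diabetic animals the ubiquitin-proteasome pathway is a well known route of protein loss.

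The genes described are those whose symbol in the annotation of the RAE 230A array begins with Psma, Psmb, Psmc, Psmd, Psme or Ube2, other than Ube2c, where a probe set names that gene alone. There were 64 such genes among the 10411 genes named alone by a probe set. Each was represented by its probe set of highest mean log2 signal, and 12 had more than one. Whole lung of 12 male Wistar rats aged 12 weeks was measured, with 1 array per animal. The 7 diabetic rats had received intraperitoneal streptozotocin, which destroys the insulin-producing beta cells, at 8 weeks of age, and the 5 normal rats had received the citrate buffer alone. All were killed 4 weeks after the injection, following an overnight fast. The model is therefore chemically induced insulin deficiency of short duration, and each value is an average over all cell types of the lung, in which fewer cells of a type and less RNA per cell cannot be told apart.

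The signal is the intensity that MAS 5.0 software computes for a probe set from its matched and mismatched probes, and the deposited arrays share one trimmed mean, of 500.1. The defining genes of lung were bright on all arrays, with a mean signal of 25682 in normal and 24347 in diabetic lung for surfactant protein C (Sftpc), and all 5 striated muscle markers lay under the filter on low signals. Over arrays, the median signal went from 260.2 to 272.8 over normal and from 253.5 to 266.3 over diabetic animals, with p = 0.133 by a two-sided exact permutation test. The 3' to 5' signal ratio of GAPDH, a measure of RNA integrity, averaged 1.32 ± 0.0778 (SD) in the normal and 1.15 ± 0.0710 in the diabetic animals, with p = 0.00505 by the same exact permutation test, and that of beta-actin 2.06 ± 0.437 and 2.08 ± 0.372, with p = 0.920. Diabetic animal 6 correlated least with the rest of its group (mean r = 0.948, against 0.963 to 0.971 for the other 6 diabetic animals). Several, but not all, of the results that depend on it are also given without it.

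Of the 64 genes, 62 lay above the filter, a cut that dropped the dimmest 40% of all probe sets. The other 2, the testis-type E2 gene Ube2d2b and the DNA repair E2 gene Ube2t, had mean signals of 31.0 and 41.2 in normal lung and 24.0 and 27.4 in diabetic lung. In the fit with limma over all probe sets, 0 of the 62 passed an adjusted p of 0.05 (Benjamini-Hochberg), where 0.199% of all 7036 genes tested did, and the smallest adjusted p among the 62 was 0.0895. At an unadjusted p under 0.05 in limma, 8 of the 62 (12.9%) were lower in diabetic lung, against 9.11% of all genes tested, and 1 (1.61%) was higher, against 7.48%. The 8 were Psma4, Psmb3, Psmb7, Psmc5, Psmd1, Psmd8, Psme4 and Ube2s, and the higher one was Ube2b. A share of 12.9% is close to the background of 9.11%, so these genes are described below as members with the smallest p and not as changed genes. With each array centred on its own median the counts were 4 lower and 2 higher, where 6.52% and 9.61% of all genes tested were.

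All differences were small. The log2 change, diabetic minus normal, ranged from -0.30 (Psma4) to 0.31 (Ube2b), with a median of -0.06 over the 62 genes beside -0.01 over all genes tested. The change was below 0 for 40 of the 62 (64.5%), against 53.9% of all genes tested. For 61 of the 62 the 95% interval of the log2 change lay wholly within a 1.5-fold difference in either direction, as it did for 88.8% of all genes tested. The exception was Ube2l6, whose interval ran from -0.63 to 0.31. The interval of each of the 36 proteasome genes was among those 61. When normal animal 5 was left out, the counts at an unadjusted p under 0.05 became 2 lower (Psmb3 and Psmc5) and 5 higher (Ube2b with Psmc4, Ube2e3, Ube2g1 and Ube2q1). They were 5 lower without normal animal 1 or diabetic animal 4, and 11 lower without diabetic animal 1, and the count of higher genes was 2 without normal animal 1 or diabetic animal 6.

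**Figure D1:**
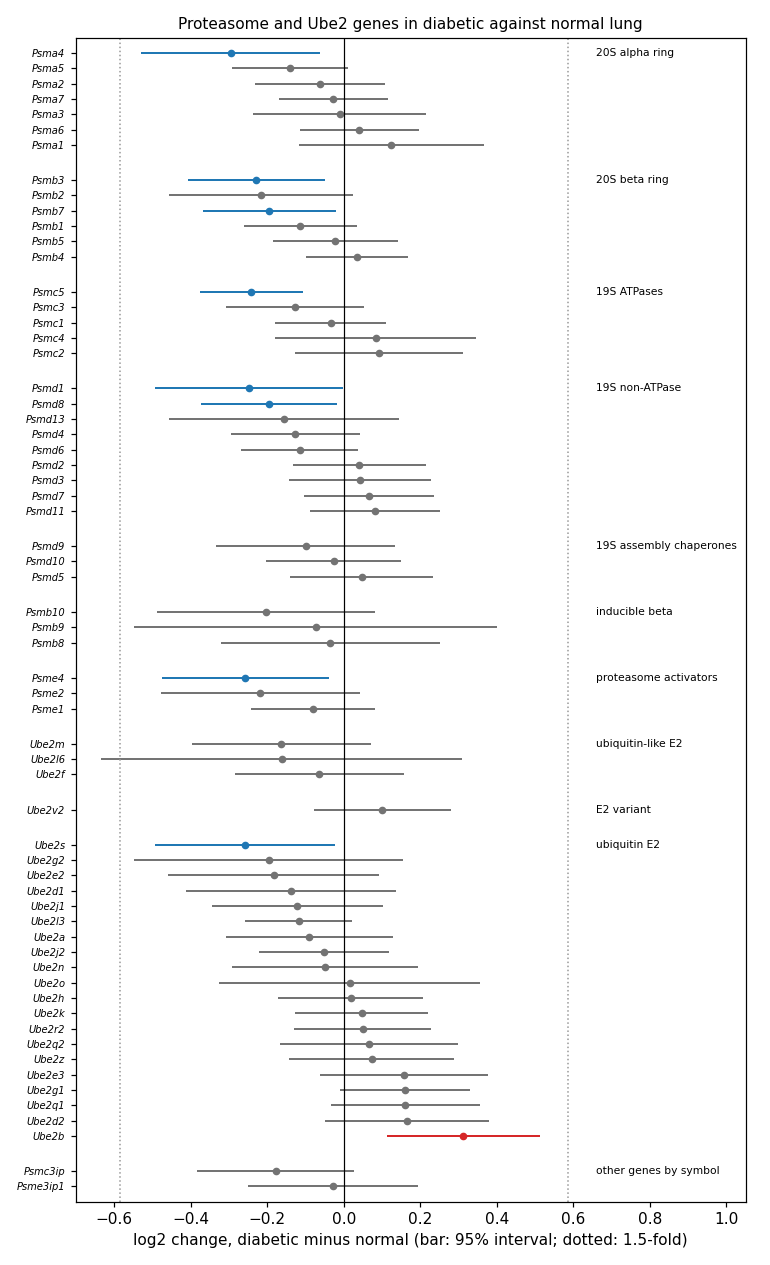
Log2 change in diabetic against normal lung (x axis) of the 62 genes above the filter (y axis), by class, with the 95% interval from limma as a bar and a 1.5-fold difference as dotted lines. Blue marks 8 lower and red 1 higher gene at an unadjusted p under 0.05, and the interval of Ube2l6 alone crosses a dotted line.

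The alpha ring gates the entry to the barrel. All 7 of its genes, Psma1 to Psma7, lay above the filter, 5 with a change below 0, and their median log2 change was -0.03. Psma4 had the lowest change among the 62 genes above the filter. Its signal was 953, 988, 1001, 992 and 1240.2 in normal animals 1 to 5, and in diabetic lung the lowest was 679.6, the median 822 and the highest 1034. Normal animal 5 stood well above the other 4, the diabetic values spread widely, and the groups overlapped. The log2 change of Psma4 was -0.30 (SE 0.11, unadjusted p = 0.0159 and adjusted p = 0.199 in limma), and without normal animal 5 it was -0.23 (unadjusted p = 0.0558). The remaining 6 alpha genes had changes from -0.14 (Psma5) to 0.12 (Psma1).

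The constitutive beta ring holds the caspase-like, trypsin-like and chymotrypsin-like sites, in the subunits encoded by Psmb6, Psmb7 and Psmb5. Psmb6 was not among the genes, since its probe set also names Psmb6l1. Of the 6 others, 5 had a change below 0 and the median was -0.15. Psmb3, a structural subunit, had signals of 2372, 2298, 2155, 2229 and 2209 in the 5 normal animals and of 1558 at the lowest, 1920.2 at the median and 2187 at the highest in diabetic lung. The diabetic values reached only into the lower end of the normal range, and the log2 change was -0.23 (SE 0.08, adjusted p = 0.196 in limma). Psmb7 had 1919, 2099.7, 1867, 2519 and 2294 in normal lung and 1752, 1825 and 2039 (lowest, median and highest) in diabetic lung, a change of -0.19 (SE 0.08, adjusted p = 0.247 in limma). Here the normal group was the more variable one, with normal animals 2, 4 and 5 above every diabetic animal. Psmb5, the chymotrypsin-like subunit and the main target of proteasome inhibitors, had 2319.8, 2499, 2256, 2275 and 2891 in normal lung and 2180.0, 2413 and 2607 in diabetic lung. The groups overlapped but for normal animal 5, above all diabetic animals, and diabetic animal 4, below all normal animals. Its log2 change was -0.02 (SE 0.08), with a 95% interval from -0.18 to 0.14. Its direction turned in the fit with arrays centred on their median, where the change was 0.0045.

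Among the ATPases of the 19S base, Psmc5 was the one gene of all 62 whose groups did not overlap. Psmc5 (chromosome 10, 91687553 to 91693487 in GRCr8) encodes the ATPase Rpt6. Its signal was 1059, 1035, 966, 1078 and 1017 in normal lung and 837 at the lowest, 865 at the median and 936 at the highest in diabetic lung. Every diabetic animal thus lay below every normal animal, by a narrow gap, and both groups were tight. The log2 change was -0.24 (SE 0.06, -15.4% on the fitted scale, unadjusted p = 0.00134 and adjusted p = 0.0895 in limma). It lay between -0.27 and -0.23 whichever animal was left out, with an unadjusted p of 0.00128 to 0.00406 in limma. Non-overlap with lower diabetic values was found for 1.24% of all genes tested and for 1 of the 62 genes here, and non-overlap with higher values for 0.895% of all genes and 0 of the 62. The 4 other ATPase genes measured had log2 changes of -0.03 (Psmc1), 0.09 (Psmc2), -0.13 (Psmc3) and 0.08 (Psmc4), and the class median was -0.03. Psmc6 was not analysed here.

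Of 9 genes for non-ATPase subunits of the 19S particle, 5 had a change below 0 and the median was -0.12. Psmd1, the large scaffold Rpn2, had 550.0, 448, 442, 525 and 555 in normal lung and 325, 438 and 510.1 (lowest, median and highest) in diabetic lung. Psmd8, the lid subunit Rpn12, had 864, 852, 866, 1071 and 967 and in diabetic lung 704, 803 and 882. Normal animals 1, 4 and 5 lay above every diabetic animal for Psmd1, as did normal animals 4 and 5 for Psmd8, and the rest lay within the diabetic range. Their log2 changes were -0.25 (SE 0.11, adjusted p = 0.296 in limma) and -0.19 (SE 0.08, adjusted p = 0.259 in limma). The ubiquitin receptor gene Psmd4 had -0.13, and Psmd2, which encodes the other large scaffold, 0.04. The 3 assembly chaperones of the base, Psmd5, Psmd9 and Psmd10, which leave the finished particle, had changes from -0.10 to 0.05.

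The 27 constitutive subunits of core and regulatory particle are needed in fixed proportion, so their levels were also averaged per animal, as log2 signal relative to the normal mean. The mean was -0.04 to 0.06 in the 5 normal animals and -0.16 to 0.06 in the 7 diabetic animals, with a median of -0.08 in diabetic lung. The groups overlapped, with diabetic animal 1 at 0.06 and diabetic animal 5 at the lowest value. In all, 18 of the 27 genes had a change below 0, and 6 (22.2%) were lower at an unadjusted p under 0.05 in limma, beside the background of 9.11%, and only Psmb3 and Psmc5 of these 6 were so without normal animal 5. The GAPDH 3' to 5' ratio moved with the groups (above), and with that ratio as a covariate Psmd8 had a change of -0.03 and Psmb7 one of -0.11, Psmc5 -0.20 (unadjusted p = 0.0599 in limma) and Psma4 and Psmb3 an unadjusted p still under 0.05.

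**Figure D2:**
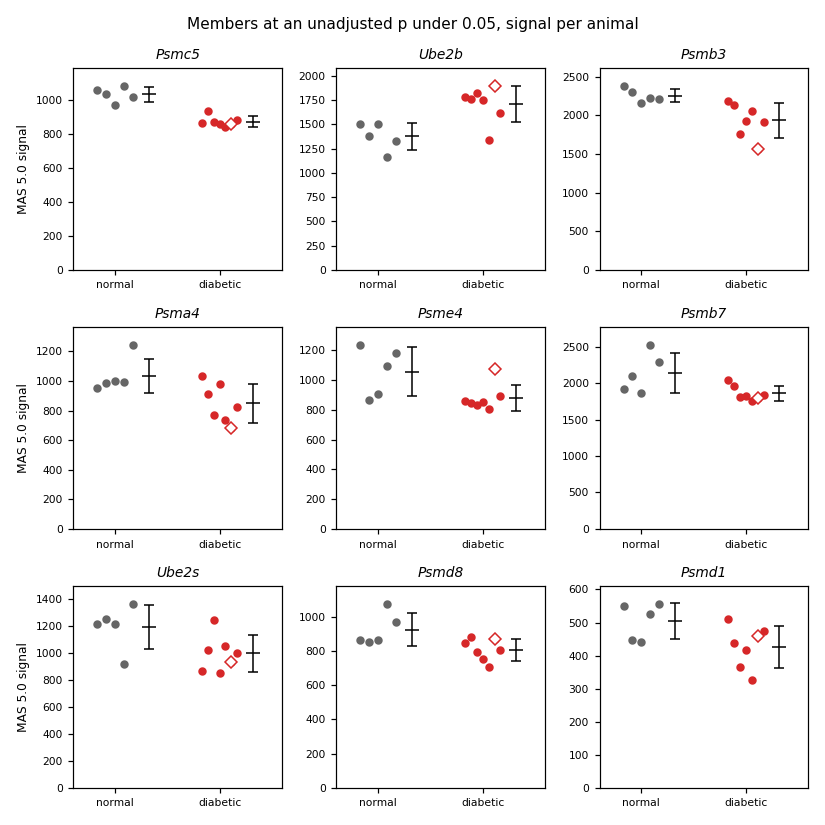
MAS 5.0 signal (y axis, from 0) of the 9 genes at an unadjusted p under 0.05 in each normal (grey) and diabetic (red) animal, with the mean and SD in black and diabetic animal 6 as an open diamond. The groups are separate for Psmc5 and overlap for the 8 other genes.

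For the immunoproteasome genes 0 of 5 differed between the groups at an unadjusted p under 0.05 in limma, and for Psmb8, Psmb9, Psmb10 and Psme2 the diabetic animals spread more widely than the normal ones. With the GAPDH 3' to 5' ratio as a covariate, which differed between the groups, 4 of the 5 were lower at an unadjusted p under 0.05 in limma: Psmb9 (-0.73), Psmb10 (-0.52), Psme1 (-0.26) and Psme2 (-0.46). Psmb8 had -0.31 and was not among them. In that fit 10.9% of all genes tested were lower. Because these 5 genes encode the parts that interferon gamma is known to induce, the bases before their start sites are shown. The sequences are from RefSeq (GRCr8), end at the base before the start in the promoter table, and are written 5' to 3' on the strand of the gene, with matches to GAAA, any 2 bases and GAAA again, the core of an interferon response element, or TTCNNNGAA, a STAT site, in capitals.
Psmb8, chr20:4657032-4657281, minus strand: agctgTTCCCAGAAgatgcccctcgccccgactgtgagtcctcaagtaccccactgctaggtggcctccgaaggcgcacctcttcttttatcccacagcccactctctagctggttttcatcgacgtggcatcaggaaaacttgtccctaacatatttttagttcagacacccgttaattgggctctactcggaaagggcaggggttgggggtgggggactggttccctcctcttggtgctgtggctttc
Psmb9, chr20:4668890-4668999, plus strand: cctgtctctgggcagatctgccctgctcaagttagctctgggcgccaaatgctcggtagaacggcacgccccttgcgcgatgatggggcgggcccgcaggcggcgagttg
Psmb10, chr19:50743293-50743402, minus strand: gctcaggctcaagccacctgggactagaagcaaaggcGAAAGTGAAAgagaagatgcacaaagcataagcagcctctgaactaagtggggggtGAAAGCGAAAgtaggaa
Psme1, chr15:33038861-33038970, plus strand: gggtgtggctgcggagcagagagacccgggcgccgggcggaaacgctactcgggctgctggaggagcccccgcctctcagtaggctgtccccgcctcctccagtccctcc
Psme2, chr15:33052752-33052861, minus strand: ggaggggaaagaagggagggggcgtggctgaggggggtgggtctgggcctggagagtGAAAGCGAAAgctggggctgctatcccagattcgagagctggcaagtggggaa

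The promoter table's start is that of the gene table for Psmb10 and lies inside the gene by 9 bases for Psme1, 18 for Psmb8, 48 for Psmb9 and 304 for Psme2, whose printed stretch is therefore within the annotated gene. Promoters were matched for 59 of the 64 genes, and both strands of the 250 bases before the start were searched. The interferon response element was found before Psmb10, beginning 73 and 17 bases before the start, and before Psme2, 53 bases before it. It was present in 3.29% of all 27457 promoters, in 3 of 25 promoters of constitutive subunits (Psmd7, Psma4 and Psmb3) and in 0 of 19 promoters of ubiquitin E2 genes. TTCNNNGAA, which reads the same on both strands, was found before Psmb8, 245 bases from the start, and in 7.52% of all promoters. CCAAT was present in 14 of 25 promoters of constitutive subunits and in 34.3% of all promoters. TGACNNNGC is the core of the antioxidant response element through which NRF1 and NRF2 act. It was present in 4 of these 25 (Psmd1, Psma3, Psmb2 and Psmb5), in 6 of 19 promoters of ubiquitin E2 genes and in 10.2% of all promoters. These are matches of letters and not sites shown to bind a factor.

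Psmb8 and Psmb9 lie on either side of Tap1 on chromosome 20 (4654068 to 4657049 and 4668952 to 4674421 in GRCr8). Psmb8 had a signal of 1025, 1001, 1032, 1112 and 1220.0 in normal lung and of 737 at the lowest, 1027 at the median and 1415 at the highest in diabetic lung. Psmb9 had 1412, 1431, 1332, 1256 and 1395 in normal lung and 606, 1243 and 2090.1 in diabetic lung. The 5 normal animals were thus close together, while the diabetic animals ranged from far below to well above any normal value for Psmb9. Psmb10, on chromosome 19, had 1162, 1137, 944, 1013 and 1199 in normal lung and 647, 957 and 1297 in diabetic lung. The log2 changes were -0.04 (SE 0.13) for Psmb8, -0.07 (SE 0.22) for Psmb9 and -0.20 (SE 0.13) for Psmb10, with adjusted p of 0.923, 0.899 and 0.463 in limma. Their 95% intervals ran from -0.32 to 0.25, from -0.55 to 0.40 and from -0.49 to 0.08. Without diabetic animal 6 the changes were 0.05, 0.11 and -0.11, so that the direction turned for Psmb8 and Psmb9.

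PA28 is a ring of the proteins encoded by the neighbouring genes Psme1 and Psme2, on chromosome 15, that opens the end of the core. Psme1 had 3851, 3899, 3996, 4007 and 4519 in normal lung and 3229 at the lowest, 3811 at the median and 4401 at the highest in diabetic lung. Psme2 had 1668, 1591, 1620.4, 1773 and 1754 in normal lung and 1015, 1486 and 1796 in diabetic lung. Their log2 changes were -0.08 (SE 0.08) and -0.22 (SE 0.12), with adjusted p of 0.628 and 0.382 in limma. Psme4 encodes PA200, an activator of another family that is not induced by interferon. Its signal was 1232, 864, 909, 1098 and 1183 in normal lung and 804, 850.1 and 1073 in diabetic lung, with 3 normal animals above every diabetic animal and a log2 change of -0.26 (SE 0.10, adjusted p = 0.222 in limma). Its other probe sets differed from it, with changes of -0.03 (SE 0.10) and 0.22 (SE 0.13), and the mean over the probe sets was -0.02, so the lower value rests on 1 of 3 probe sets.

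**Figure D3:**
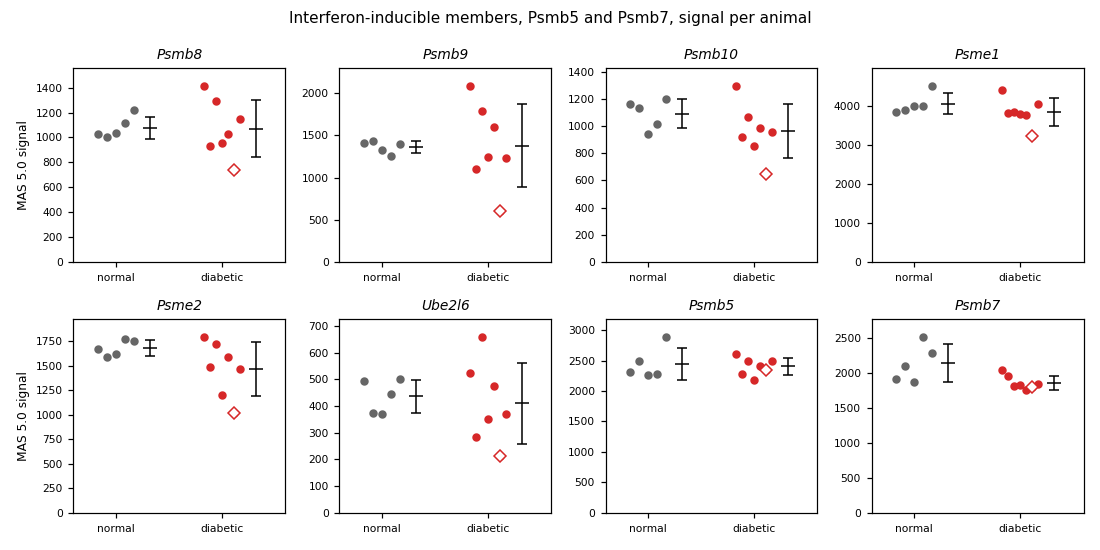
MAS 5.0 signal (y axis, from 0) of Psmb8, Psmb9, Psmb10, Psme1, Psme2 and Ube2l6, and of the constitutive Psmb5 and Psmb7 for comparison, in each normal (grey) and diabetic (red) animal, with the mean and SD in black. Diabetic animal 6, the open diamond, is the lowest of all 12 animals for the first 6 genes and lies within the diabetic group for Psmb5 and Psmb7.

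The SD of the log2 signal was 0.08 in normal and 0.59 in diabetic lung for Psmb9, 0.07 and 0.29 for Psme2, 0.12 and 0.32 for Psmb8, 0.15 and 0.31 for Psmb10 and 0.09 and 0.13 for Psme1. It was more than 2 times as large in diabetic as in normal lung for 11 of the 62 genes, beside 14.4% of all genes tested, and the ratio was largest for Psmb9 (7.60). Without diabetic animal 6 the ratio was 4.69 for Psmb9, 2.97 for Psme2, 2.10 for Psmb8, 1.44 for Psmb10 and 0.949 for Psme1. The difference in spread was not tested. Diabetic animal 1 was the highest of the 12 animals for Psmb8, Psmb9, Psmb10 and Psme2, and diabetic animal 6 the lowest for these and Psme1. Over the 62 genes, diabetic animal 6 was the lowest of the 12 animals for 18 (29%), and over all genes tested for 17.7%.

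Largely the same animals were high or low for these genes. Over the 12 animals, with the group means subtracted, Pearson's r between the 10 pairs of Psmb8, Psmb9, Psmb10, Psme1 and Psme2 was 0.739 to 0.916, with a median of 0.878. For Psmb8 with Psmb9 r was 0.873 and Spearman's rho 0.629, and for Psmb9 with Psmb10 they were 0.916 and 0.818. These r rest in part on the extreme animals. Without diabetic animals 1 and 6, the farthest from the median, r was 0.567 and 0.634 for the same pairs and -0.07 for Psmb9 with Psme1. Without diabetic animal 6 alone the median of the 10 pairs was 0.746. The arrays share one scaling, and these are descriptions of 12 animals, with no p.

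The constitutive subunits co-varied far less. The median r was 0.16 over the 351 pairs of the 27 subunits, 0.27 within the beta ring, 0.11 within the alpha ring, 0.07 among the ATPases and 0.09 among the non-ATPase subunits, beside 0.00077 over all pairs of genes tested. Between inducible subunits and their constitutive counterparts, r was 0.575 for Psmb8 with Psmb5 and 0.267 for Psmb10 with Psmb7. Psmb5 also had r = 0.572 with Psmb10 and 0.614 with Psme1. Other constitutive subunits ran both ways with the immunoproteasome genes, from -0.577 (Psmd13 with Psme2) to 0.795 (Psma4 with Psme1). Psmb3 and Psmd6 had r of 0.711 and 0.710 with Psmb10. The log2 difference Psmb8 minus Psmb5 was taken relative to its normal mean, as a comparison of RNA levels and not of subunit exchange. It was -0.14 to 0.15 in normal and -0.49 to 0.30 in diabetic lung. The lowest value was in diabetic animal 6 and the highest in diabetic animal 1. The difference Psmb10 minus Psmb7 was -0.35 to 0.24 and -0.51 to 0.32. Both groups overlapped for both measures.

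**Figure D4:**
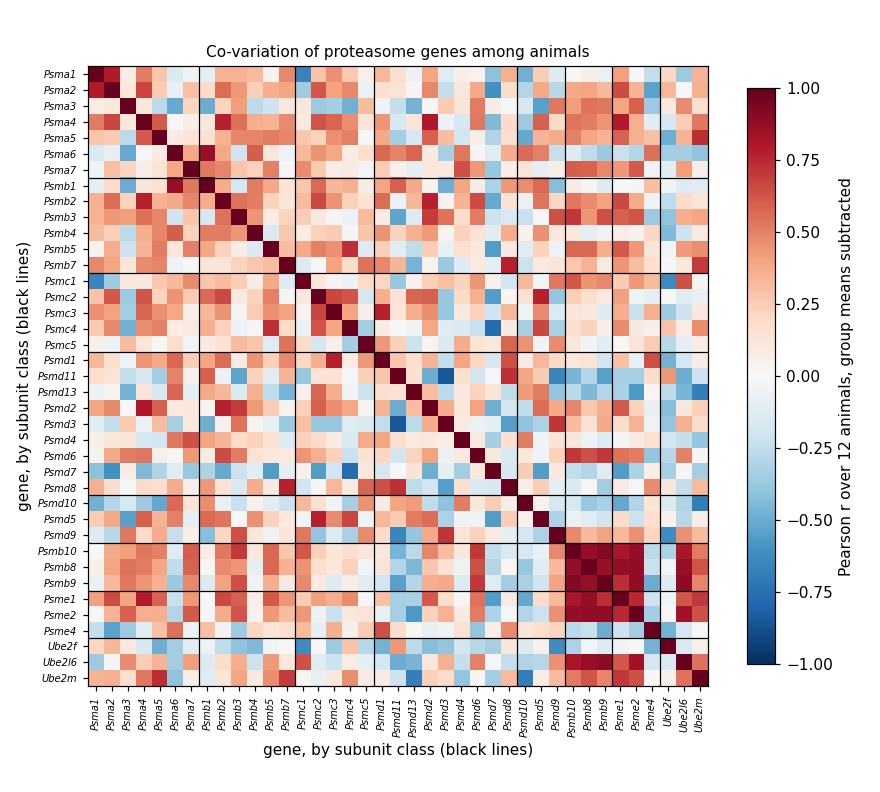
Pearson's r (colour) over 12 animals, with group means subtracted, between the log2 signals of 36 proteasome genes and 3 E2 genes for ubiquitin-like proteins, ordered by class (black lines). Psmb8, Psmb9, Psmb10, Psme1 and Psme2 form the red block, and Ube2l6, apart from it in another class, is red with each of them. Among all of these genes r is 0.62 to 0.92, and the median r of the 27 constitutive subunits is 0.16.

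Some other interferon-inducible genes had the same animals at their extremes. Ube2l6, the E2 that attaches the interferon-induced modifier ISG15, had 493, 373, 370.4, 444 and 501 in normal lung and 212 at the lowest, 370.3 at the median and 659 at the highest in diabetic lung, with r = 0.891 to Psmb9 (0.814 without diabetic animal 6). Tap1, the peptide transporter gene between Psmb8 and Psmb9, had 676 to 845 in normal and 417 to 1129 in diabetic lung. The guanylate-binding protein gene Gbp2 had 853 to 1045 and 362 to 1602. For both of these, as for Psmb9, diabetic animal 6 was the lowest and diabetic animals 1 and 3 the highest. Ube2l6 belonged to the members, and Tap1 and Gbp2 were named here after their values were seen. There were 16 genes of peptide loading and the interferon response on the array. Diabetic animal 6 was the lowest of the 12 animals for 6 of them (37.5%), beside 17.7% of all genes tested. Diabetic animal 1 was the highest for 4 (25%), beside 6.05%. Others had their extremes elsewhere, as Ifit3, Irf7, Ciita and Cxcl10, lowest in diabetic animal 2, and Ifit1, highest in normal animal 4. Lymphocytes, which carry immunoproteasomes, were sampled by a marker list of which 10 genes were on the array and 8 were tested. Its summed signal was 14254 to 16559.8 in normal and 9753 to 16028 in diabetic lung, lowest in diabetic animal 6, and no marker was at 0. Most of that sum was Cd74, an MHC class II chaperone not limited to lymphocytes, with 10524 to 12714 in normal and 7482 to 11769 in diabetic lung. Without Cd74 the 9 others summed to 3556 to 4346 and 2271 to 4455, again lowest in diabetic animal 6, which was the lowest animal for 8 of the 10 markers. Of the 8, 2 were lower (Cd79b and Cd4) and 0 higher at an unadjusted p under 0.05 in limma. Over all genes tested 9.11% were lower and 7.48% higher by that rule. Ptprc (0.20) and Cd8a (0.12) had a log2 change above 0, and the rest of the 8 one below 0. Fibroblast and smooth muscle markers were 7 genes, of which 3 were lower and 1 higher by the same rule. Their sum was 18135 to 19525 in normal and 11059 to 16031 in diabetic lung, again lowest in diabetic animal 6. The 3 lower were the collagen genes Col1a1 (log2 change -1.06), Col3a1 (-0.97) and Col1a2 (-0.94). Col3a1 alone had 8249 to 9243 in normal and 1656 to 6371 in diabetic lung. The higher one was Pdgfra (0.58), with no overlap, while Dcn (0.19), Myh11 (-0.02) and Acta2 (-0.25) overlapped between groups. Some other lists ran the other way in diabetic animal 6. Its sums for airway (29346), alveolar type II (88309.5) and endothelial markers (17544) were the highest of the 12 animals. For alveolar type I markers its sum (35505) was the highest of the diabetic animals. As with the lymphocyte list, its neutrophil sum (2445) was the lowest of the 12 animals. Its macrophage sum (1850) was the lowest of the diabetic animals. The part of any of these lists in the spread of the immunoproteasome genes was not tested.

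Among 15 genes of peptide loading and the interferon response, 1 had a higher and 0 a lower value at p under 0.05 before adjustment in limma (7.48% and 9.11% over all genes tested), and their median log2 change was -0.02. The higher one was the transcription factor gene Irf1 (0.32, SE 0.15, adjusted p = 0.301), and the peptidase gene Erap1 (0.29) and the disulphide isomerase gene Pdia3 (-0.18) came next.

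The ubiquitin-conjugating enzymes split evenly, with 12 of 24 tested Ube2 genes below and 12 above 0. For the 20 that pass ubiquitin on, the median log2 change was 0.02. Ube2b, which encodes the partner of the ligase RAD18 in post-replication repair and is known for its need in sperm formation, was the one member higher at an unadjusted p under 0.05. Its signal was 1502, 1382, 1507, 1164 and 1325 in normal lung and 1341 at the lowest, 1759 at the median and 1891 at the highest in diabetic lung. In 6 of 7 diabetic animals it was above all normal animals, and diabetic animal 5 lay within their range. The log2 change was 0.31 (SE 0.09, an increase of 24.2% on the fitted scale, adjusted p = 0.126 in limma). A second probe set of Ube2b gave 0.28 (SE 0.07, adjusted p = 0.0926 in limma), with normal signals of 1276, 1199, 1180.4, 1256 and 1039 and diabetic signals from 1324 to 1620.4, and here the groups did not overlap. The remaining probe set lay under the filter, with mean signals of 76.9 and 71.4. The change of the brightest probe set lay between 0.25 and 0.37 whichever animal was left out. With the GAPDH ratio as a covariate it was 0.32, with an unadjusted p of 0.0535 in limma.

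Ube2s, the E2 that extends lysine-11 chains for the anaphase-promoting complex, had 1217, 1257, 1216, 918 and 1361 in normal lung and 854, 1003 and 1249 in diabetic lung. Normal animal 4 lay among the diabetic values and diabetic animal 3 among the normal ones. Its log2 change was -0.26 (SE 0.11, adjusted p = 0.259 in limma), and the unadjusted p exceeded 0.05 without any one of 6 of the 12 animals. Ube2a, the paralog of Ube2b, had a change of -0.09 (SE 0.10). The E2 genes Ube2j1 and Ube2g2, which act in degradation from the endoplasmic reticulum, had -0.12 and -0.20, and Ube2g1, the relative of Ube2g2, had 0.16 (SE 0.08). Ube2n, the lysine-63 chain E2, had -0.05, and its partner without an active cysteine, Ube2v2, had 0.10. The E2 genes for NEDD8, Ube2m and Ube2f, had -0.16 and -0.06. All of these from Ube2a on overlapped between groups, and they are named for their known roles, after their values were seen.

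Probe sets of one Ube2 gene could differ. The 3 probe sets of Ube2d2, a broadly used E2 that is nearly identical to Ube2d3, had changes of 0.17 (SE 0.10), 0.54 (SE 0.18, adjusted p = 0.161 in limma) and -0.13 (SE 0.09), and those that name both genes had changes of -0.01 to -0.02. For Ube2k, the E2-25K that builds chains unaided, the brighter probe set had 0.05 (SE 0.08) and the dimmer one -0.19 (SE 0.08). Members of the gene families with near-identical copies are therefore uncertain. A further 3 symbols met the rule for their letters alone or as a copy: Psmc3ip, a meiotic recombination factor (-0.18), Psme3ip1, a partner of PA28 gamma (-0.03), and Ube2d2b, already described.

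The rest of the pathway was taken from lists drawn up by role. Of 115 genes tested for ubiquitin and its relatives, E1 enzymes, other E2-fold proteins, E3 ligases, deubiquitinases, shuttles, assembly factors, transcription factors and peptide loading, 0 passed an adjusted p of 0.05 in limma. Before adjustment 10 had a higher value and 6 a lower one at p under 0.05, and the median log2 change was -0.01. Over all genes tested 7.48% were higher and 9.11% lower by that rule, so these counts over the 115 genes are near the background. In the sentences that follow, higher and lower mean at an unadjusted p under 0.05 in limma. Among 10 further proteasome genes, Psmf1, the inhibitor PI31 (-0.36, SE 0.12), and Psmg2, an assembly chaperone of the alpha ring (-0.22, SE 0.08), were lower, and Ecpas, a scaffold of the proteasome (0.32, SE 0.13), was higher. For Psmg2 the groups did not overlap. Nfe2l2, the gene of NRF2, was higher (0.24, SE 0.06, adjusted p = 0.0926 in limma), with a signal of 1529 ± 89.9 (SD, n = 5) in normal and 1808 ± 82.1 (SD, n = 7) in diabetic lung and no overlap. Ddi2, the protease that activates NRF1, was higher as well (0.21, SE 0.09), while Nfe2l1, the gene of NRF1 and the inducer of proteasome genes when the proteasome is inhibited, had -0.04 (SE 0.14).

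At the start of the pathway, Uba1, the main ubiquitin E1, had a log2 change of -0.17 (SE 0.07), and Uba3, the catalytic E1 subunit for NEDD8, had 0.34 (SE 0.12), with adjusted p of 0.237 and 0.189 in limma. Nedd8 itself had -0.18 (SE 0.07). Of 30 ligase genes, 3 were higher and 1 was lower, and those of smallest p were the cullin adaptor gene Skp1 (-0.19), the sodium channel ligase gene Nedd4l (0.51) and the cullin gene Cul4a (0.47). Of 28 deubiquitinase genes, Usp1, which acts on the substrates of Ube2a and Ube2b, was higher (0.33, SE 0.11, adjusted p = 0.155 in limma), Otub2 was lower (-0.26, SE 0.12), and Usp4 had -0.18. Of 11 shuttle and unfoldase genes, 0 had an unadjusted p under 0.05 in limma, with Ube4b (0.22), Ubqln2 (0.23) and the unfoldase gene Vcp (-0.14) the nearest to it. Tsg101, an inactive E2-like protein of endosomal sorting, was higher (0.28, SE 0.12).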

How the data were processed

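Lung RNA of 5 normal and 7 diabetic rats was hybridized to RAE 230A arrays, 1 per animal. The deposited values are intensities on a linear scale, 1 MAS 5.0 signal per probe set, made by the authors with Affymetrix software, with a trimmed mean of 500.1. They were transformed to log2 after 1 value at 0 was replaced by 0.1, without the 57 controls. Among 15923 probe sets in all, 12783 named 1 gene, 312 several and 2771 none, by the platform annotation, with symbols updated through Entrez IDs. The 40% with the lowest mean log2 signal (under 170.0) were removed. The other 9520 entered a limma 3.58.1 fit under R 4.3.3 (lmFit, then eBayes with trend, two-sided, Benjamini-Hochberg), and 16 passed an adjusted p of 0.05. The fit was checked on simulated data. For array measures an exact permutation test used all 792 divisions of the arrays. The number of arrays limits the precision, and the p-values assume independent animals. Named were the members at an unadjusted p under 0.05, Psmb5 to Psmb10, Psme1 and Psme2, and up to 3 genes of smallest p per pathway list. The members and lists were chosen with earlier results of these data known. Other single names were chosen after their values were seen. Alternatives covered the filter, scaling, adding 64 before the log, eBayes without trend, weighting arrays, blocking on replicate number, how probe sets of a gene are combined, the GAPDH ratio as a covariate, the test and leaving out each animal. Same-numbered animals of the groups are different rats, and their deviations correlated by -0.12 to 0.04. Figures were drawn with matplotlib 3.10.9 in python 3.11.15.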

Additional observations from a re-analysis of the deposited data

Results flagged for a closer look

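Of 38 groups of values examined for a single animal far from its group (chance alone gives about 1 in 20), 4 held one. In normal animal 5 the signal of Psma4 was 1240.2 and that of Psme1 was 4519, and each gap to the next animal was 0.833 and 0.766 of the range of the normal group. This is also the animal whose removal moved the most members across an unadjusted p of 0.05. In diabetic animal 2 the signal of Psmc5 was 936, the highest of its group and still below all normal animals. In diabetic animal 6 that of Psme4 was 1073, above the other 6 diabetic animals.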

How the results depend on the processing

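The count of 0 members past an adjusted p of 0.05 held under every alternative run. At an unadjusted p under 0.05 the counts of 8 lower and 1 higher became 4 and 2 with arrays centred on their median, 5 and 2 with array weights, and 4 and 2 with the replicate block, and the higher count was 2 without a filter, by the exact permutation test and with the mean of the probe sets of a gene. Leaving out 1 animal gave 2 to 11 lower and 1 to 5 higher genes. With the replicate block 5 of the 9 genes were shared with the fit without it, Psma4, Psmb3, Psmb7 and Psmd8 were not among its calls, Psmb8 had a change of 0.041 and Psmb9 one of 0.16, and the numbers pair no animals. With the GAPDH ratio as a covariate, which differs between the groups, 11 were lower and 1 (Psmd11) higher, and 3 of the 9 genes were shared (Psma4, Psmb3 and Ube2s). Newly lower were Psmb2, Psmb9, Psmb10, Psme1, Psme2, Ube2a, Ube2e2 and Ube2n, and the median log2 change was -0.16 for the alpha ring, -0.52 for the inducible beta subunits and -0.042 for the ubiquitin E2 genes. The cause was not tested, nor how far these values rest on diabetic animal 6. Taking the mean of the probe sets moved the median of the activators from -0.22 to -0.081. Psmb8 was at 0.040 with array weights and Psmb5 at 0.0045 with arrays centred. Leaving out 1 animal, the change was -0.050 to 0.039 for Psmb5, -0.11 to 0.050 for Psmb8 and -0.19 to 0.11 for Psmb9, and the median of the ubiquitin E2 genes was -0.045 to 0.044. Over all recomputed values of the named members, 287 kept direction and side of an unadjusted p of 0.05, 43 fell short of it, 6 newly passed it and 9 turned in direction.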
